A study of Mus musculus with 6 samples.

Results

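The genes described here are 40 genes of G2 phase and mitosis, chosen by symbol from a fixed list of mitotic cyclins, kinases and spindle, kinetochore and cytokinesis genes. All 40 were found among the 30438 gene symbols of the count table, and all 40 passed the filter on low counts that left 14618 genes to test. The rule itself uses no measured value. Poly(A) RNA was sequenced from HEI-OC1, a mouse organ of Corti line with conditional immortality that the labels call a cochlear stem cell. There were 2 groups of 3 libraries: HEI-OC1 labelled Nrf2 KO (genotype Nrf2 knockout), and the parental HEI-OC1 (genotype WT) as control. Both groups were cultured in DMEM with 10% serum and penicillin-streptomycin at 33 °C in 10% CO2, and no other agent is named. The sources used here do not give how the knockout was made, whether it is a single clone, or whether replicates were separate cultures, so p-values measure the spread between these libraries, which may be technical.

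Entry into mitosis is driven by CDK1 bound to cyclin A or cyclin B, which CDC25 phosphatases activate. The spindle checkpoint then holds back CDC20 and the anaphase-promoting complex until every kinetochore is attached to microtubules, after which the cyclins are destroyed and cytokinesis follows. Transcripts of these genes accumulate in G2 in cycling cells and are low in resting ones. HEI-OC1 divides at 33 °C because it carries a temperature-sensitive SV40 large T antigen, whereas mature hair cells do not divide.

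The libraries held between 29130007 and 51285343 counts. Nfe2l2, the gene for Nrf2, was at 396, 236 and 205 CPM (counts scaled by library size and TMM factor) in the libraries labelled Nrf2 KO, against 74.2, 126 and 96.7 CPM in the control libraries. Its transcript was therefore higher and not lower under the knockout label (log2 fold change 1.49, SE 0.33, adjusted p = 0.0456 by edgeR), so each direction below goes by the label alone and the libraries are called KO-labelled. That call was lost without Nrf2 KO replicate 2 (adjusted p = 0.102) or 3 (0.0784) and without control replicate 1 (0.167), 2 (0.102) or 3 (0.202). Nrf2 KO replicate 1 stood apart from the other libraries, and the control replicate 1 departed from its group in the same direction, so results are also given without them. Of the defining hair cell markers, Atoh1, Slc26a5 and Pvalb had 0 counts in all 6 libraries, as had the supporting cell marker Sox2. Of 3 tested hair cell markers edgeR called 1 higher and 0 lower, and of 7 supporting cell markers 3 and 0. Of all tested genes 4.83% were called higher and 3.45% lower. At an unadjusted p under 0.05 by edgeR, the hair cell counts were 1 and 0 and the supporting cell counts 5 and 0. The log2 fold changes ran from -0.02 to 3.95 in the tested hair cell markers and from -0.34 to 2.19 in the supporting cell markers. Summed hair cell levels were 62.9 to 76.8 CPM in the libraries labelled Nrf2 KO and 33.3 to 45.6 CPM in control. Summed supporting cell levels were 489.7 to 708 CPM in the libraries labelled Nrf2 KO and 413 to 504 CPM in control. Of 9 tested fibroblast and mesenchyme markers 4 were called higher and 0 lower. At an unadjusted p under 0.05 by edgeR, 6 were higher and 2 lower (13.4% and 11.6% of all tested genes). Their summed levels overlapped, at 10407 to 13296 CPM in the libraries labelled Nrf2 KO and 12410 to 12584 CPM in control. Markers of the other cell types were low in both groups, with sums in KO-labelled libraries of at most 0.17 (epithelium), 1.43 (endothelium), 14.97 (leukocyte) and 18.5 CPM (neuron and glia), against at most 0.387, 3.04, 6.58 and 21.5 CPM in control. Their part in the results below was not tested.

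With all 6 libraries, the quasi-likelihood test of edgeR, adjusted by Benjamini-Hochberg, called 0 of the 40 G2 and mitosis genes higher and 0 lower under the Nrf2 KO label, against 4.83% of all tested genes higher and 3.45% lower. At an unadjusted p under 0.05, 7 members were higher and 0 lower, with 13.4% and 11.6% of all tested genes. DESeq2 called 5 higher and 0 lower (10.9% and 9.02% of all genes), and limma-voom 1 and 0 (5.14% and 4.12%). RLE scaling called 1 and 0 (4.95% and 3.45%), and so did a filter of 1 CPM (5.22% and 3.8%). The counts were 0 and 0 with upper-quartile scaling (4.31% and 4.08%), library size alone (4.42% and 3.66%) and no filter on low counts (2.85% and 1.98%). The median log2 fold change of the 40 genes was 0.27, against 0.04 over all tested genes, and their range ran from -0.54 to 0.80. Of the 40, 32 had a positive fold change. In 13 of the 40 genes all 3 KO-labelled libraries lay above all 3 control libraries, and in 1 they lay below; over all tested genes the shares were 17.1% each.

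A change in the share of cells in a phase and a change in RNA per cell cannot be told apart in such bulk samples. The summed level of the 40 genes was 8451, 11095 and 10947 CPM in Nrf2 KO replicates 1, 2 and 3, against 7972, 9052 and 8763 CPM in control replicates 1, 2 and 3. The lowest library of each group was its replicate 1, and the lowest KO-labelled library lay within the control range. In each of the 3 same-numbered pairs the KO-labelled library had the higher sum.

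**Figure D1:**
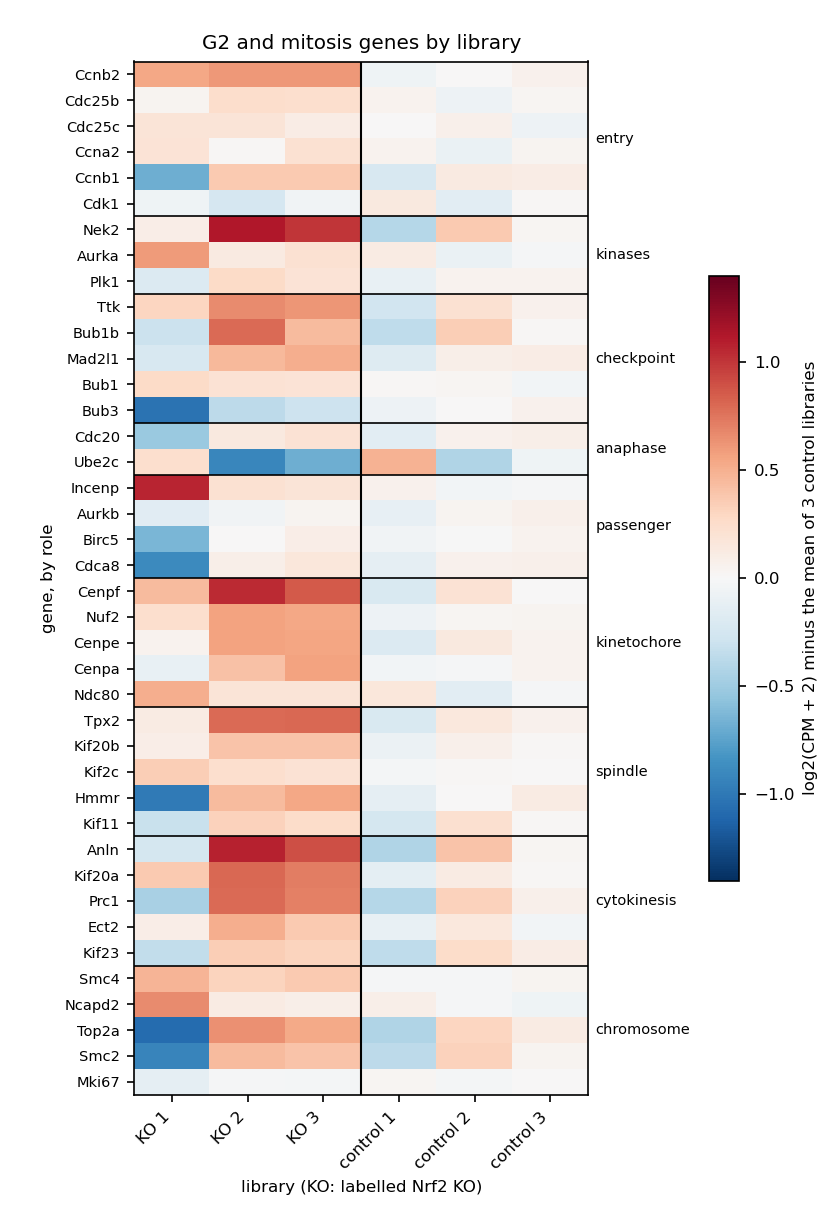
Level of each of the 40 genes in each library, as log2(CPM + 2) minus the mean of the 3 control libraries, with the 3 KO-labelled libraries on the left and genes grouped by role. Nrf2 KO replicates 2 and 3 are red across most kinetochore, spindle and cytokinesis genes, while replicate 1 holds both red genes (Incenp, Ncapd2) and blue ones (Top2a, Bub3, Hmmr).

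Cyclin B2 had the smallest p of the 40 genes. Ccnb2, which encodes this partner of CDK1, was at 198, 207 and 207 CPM in the KO-labelled libraries, against 129.9, 136 and 142 CPM in the control libraries. The groups did not overlap, and replicate 1 was close to its group on both sides. The log2 fold change was 0.59 (SE 0.14), and the adjusted p of 0.0504 by edgeR just missed the threshold of 0.05. It passed with the replicate number as a block (0.0300), with DESeq2 (1.5e-08), limma-voom (0.0413) and RLE scaling (0.0472), and with a filter of 1 CPM (0.0402), but not with upper-quartile scaling (0.0591), library size alone (0.0538) or no filter on low counts (0.11). A pseudogene, Ccnb2-ps, is annotated in mouse, and reads of the pair may be split. The same holds for Ccnb1 and its pseudogene Ccnb1-ps. The other entry genes had log2 fold changes nearer to 0. Cdk1, the mitotic kinase itself, was at 403, 356 and 406 CPM in the KO-labelled libraries and 461, 378 and 425 CPM in control, with overlapping groups (-0.12, SE 0.17). Ccna2, which encodes cyclin A2, averaged 343 ± 24.4 CPM in KO-labelled and 311 ± 16.8 CPM in control libraries (SD, n = 3 each; log2 fold change 0.14). The CDC25 phosphatase genes Cdc25b and Cdc25c had log2 fold changes of 0.18 and 0.16. Ccnb1, which encodes cyclin B1, had 0.08 with a SE of 0.31; its level was 152 CPM in Nrf2 KO replicate 1, against 319 and 318 CPM in replicates 2 and 3.

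Among the other mitotic kinases, Nek2, which acts at the centrosome, was at 67.2, 139 and 128 CPM in the KO-labelled libraries, against 47.3, 81.9 and 64.6 CPM in control. In each same-numbered pair the KO-labelled library was higher, but the groups overlapped through replicate 1. The log2 fold change was 0.79 (SE 0.34), with an adjusted p of 0.211 by edgeR and 0.0267 with the replicate block. Plk1, the polo-like kinase, was at 145, 199.5 and 189.7 CPM in the KO-labelled libraries and 154, 172 and 172 CPM in control (log2 fold change 0.10, SE 0.18). Aurka, the centrosomal Aurora kinase, did not overlap between the groups, at 155 ± 28.4 CPM in KO-labelled and 124 ± 9.09 CPM in control libraries (log2 fold change 0.33, SE 0.18, adjusted p = 0.322 by edgeR). The gap was narrow, between 135 CPM in Nrf2 KO replicate 2 and 133 CPM in control replicate 1. Without Nrf2 KO replicate 1, at 188 CPM, the log2 fold change of Aurka was 0.17 (SE 0.11).

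Members of the spindle checkpoint lay on both sides of 0. Ttk, which encodes the kinase MPS1 that starts checkpoint signalling, was at 123, 159 and 153 CPM in the KO-labelled libraries and 81.8, 115 and 104 CPM in control. The groups did not overlap, and the log2 fold change was 0.53 (SE 0.19), with an adjusted p of 0.152 by edgeR and 0.0343 with the replicate block. Bub3, whose protein brings BUB1 and BUBR1 to kinetochores, was the 1 member whose groups did not overlap in the downward direction. It was at 58.6, 94.3 and 99.0 CPM in the KO-labelled libraries, against 116, 123 and 127 CPM in control (log2 fold change -0.54, SE 0.22, adjusted p = 0.202 by edgeR). Bub3 overlaps Fgfr2 on the opposite strand in the mouse annotation, by the span of the whole genes. Whether their exons overlap was not looked at, and the strand setting of the counts is not given, so reads of the pair may be mixed. Its binding partner Bub1 was at 225, 215 and 212 CPM in the KO-labelled libraries and 188, 189 and 181 CPM in control, without overlap (0.22, SE 0.14). Bub1b, the gene of BUBR1, had a log2 fold change of 0.36 (SE 0.33), and Mad2l1, which encodes the CDC20 inhibitor MAD2, 0.28 (SE 0.24), both with overlapping groups.

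Both genes for anaphase promotion had negative values. Ube2c, the ubiquitin-conjugating enzyme of the anaphase-promoting complex, was at 241, 108 and 126 CPM in the KO-labelled libraries and 287, 152 and 196 CPM in control. It was lower in all 3 same-numbered pairs, and, unlike most members, it was highest in replicate 1 of each group (log2 fold change -0.42, SE 0.38). Cdc20, the activator of the complex, was at 182, 289 and 301 CPM in the KO-labelled libraries and 236, 273 and 278 CPM in control (-0.03, SE 0.23). Ube2c overlaps Tnnc2, and Cdc20 overlaps Elovl1, on the opposite strand in the mouse annotation. Such overlaps were not particular to members with negative values. Of the 40 genes, 17 overlap a gene on the opposite strand and 9 one on the same strand. Ccna2, Prc1, Cenpf and Nek2, with positive values, are among those with an overlap on the opposite strand.

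The chromosomal passenger complex, which corrects faulty attachments and later directs cytokinesis, gave no shared direction. Incenp, its scaffold, was at 485, 267 and 262 CPM in the KO-labelled libraries against 239.9, 225 and 228 CPM in control. The groups did not overlap, but replicate 1 set the size of the difference: the log2 fold change was 0.55 (SE 0.28) with all libraries and 0.23 (SE 0.08) without both libraries numbered 1. Aurkb, the kinase of the complex, averaged 93.6 ± 6.43 CPM in KO-labelled and 97.3 ± 6.57 CPM in control libraries (-0.06). Birc5 (survivin) and Cdca8 (borealin) had log2 fold changes of -0.15 each, which turned to 0.03 and 0.06 without both libraries numbered 1.

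All 5 centromere and kinetochore genes had positive values. Cenpf, a large protein of the outer kinetochore and nuclear matrix, had the highest log2 fold change of the 40 genes. It was at 242, 369 and 324 CPM in the KO-labelled libraries, against 153, 206 and 179 CPM in control, without overlap and higher in every same-numbered pair. The log2 fold change was 0.80 (SE 0.22), with an adjusted p of 0.0814 by edgeR and 0.0199 with the replicate block. Nuf2, a subunit of the NDC80 complex that binds microtubules, was at 128, 161 and 157 CPM in the KO-labelled libraries and 103, 110.1 and 111 CPM in control (0.46, SE 0.15, adjusted p = 0.125 by edgeR). Those groups did not overlap either. Its partner Ndc80 had 0.30 (SE 0.17), the kinetochore motor Cenpe 0.41 (SE 0.20) and the centromeric histone Cenpa 0.32 (SE 0.20).

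The 5 spindle motors and microtubule proteins were also all positive. Tpx2, which activates Aurora A and nucleates spindle microtubules, was at 414, 665 and 666 CPM in the KO-labelled libraries and 329.7, 422 and 399 CPM in control. Only Nrf2 KO replicate 1 fell into the control range. Its log2 fold change of 0.60 (SE 0.25) had an adjusted p of 0.196 by edgeR. Kif2c, a microtubule-depolymerising kinesin (0.27, SE 0.13), and Kif20b (0.30, SE 0.16) did not overlap between the groups. Kif11, the kinesin that separates the spindle poles, had 0.10 (SE 0.23). Hmmr, a spindle protein and hyaluronan receptor, was at 87.4, 240.03 and 257 CPM in the KO-labelled libraries and 161, 177 and 191 CPM in control. Its level in Nrf2 KO replicate 1 was below every control library and in replicates 2 and 3 above every one, which left a log2 fold change of 0.14 (SE 0.40).

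Genes of the central spindle and cytokinesis gave 5 positive values. Kif20a, a kinesin that carries passenger proteins to the midzone, was at 282, 385 and 362 CPM in the KO-labelled libraries, against 199, 238 and 222 CPM in control. The groups did not overlap (log2 fold change 0.64, SE 0.19), and the adjusted p by edgeR was 0.0913, and 0.0339 with the replicate block. Kif20a overlaps Cdc23 on the opposite strand in the mouse annotation. Prc1, which bundles midzone microtubules, was at 243, 575 and 543 CPM in the KO-labelled libraries and 251, 416 and 349 CPM in control (0.42, SE 0.38). Anln, the contractile ring protein anillin, had 0.65 (SE 0.39), Ect2, the exchange factor that activates RhoA, 0.33 (SE 0.17), and Kif23, a centralspindlin subunit, 0.12 (SE 0.26).

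Of the chromosome genes, Mki67, the proliferation antigen Ki-67 that coats mitotic chromosomes, was at 877, 943 and 939.5 CPM in the KO-labelled libraries and 976, 935 and 959 CPM in control. The groups overlapped, and the log2 fold change was -0.06 (SE 0.16). Smc4, a condensin subunit, was at 645, 576 and 597 CPM in the KO-labelled libraries and 458, 458 and 476 CPM in control, without overlap (0.39, SE 0.16, adjusted p = 0.195 by edgeR). Its partner in condensin, Smc2, was at 107, 280.3 and 270.3 CPM in the KO-labelled libraries and 159, 257 and 211 CPM in control (0.07, SE 0.40). The condensin subunit genes Smc2 and Smc4 thus differed most in replicate 1, where Smc2 was lowest and Smc4 highest of the 3 KO-labelled libraries. Ncapd2, another condensin subunit, had 0.31 (SE 0.21), and 0.09 (SE 0.11) without Nrf2 KO replicate 1. Top2a, the topoisomerase that untangles sister chromatids, was at 316, 1040.35 and 969 CPM in the KO-labelled libraries and 499, 827 and 724 CPM in control, so that its groups overlapped through replicate 1 alone (0.18, SE 0.47).

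**Figure D2:**
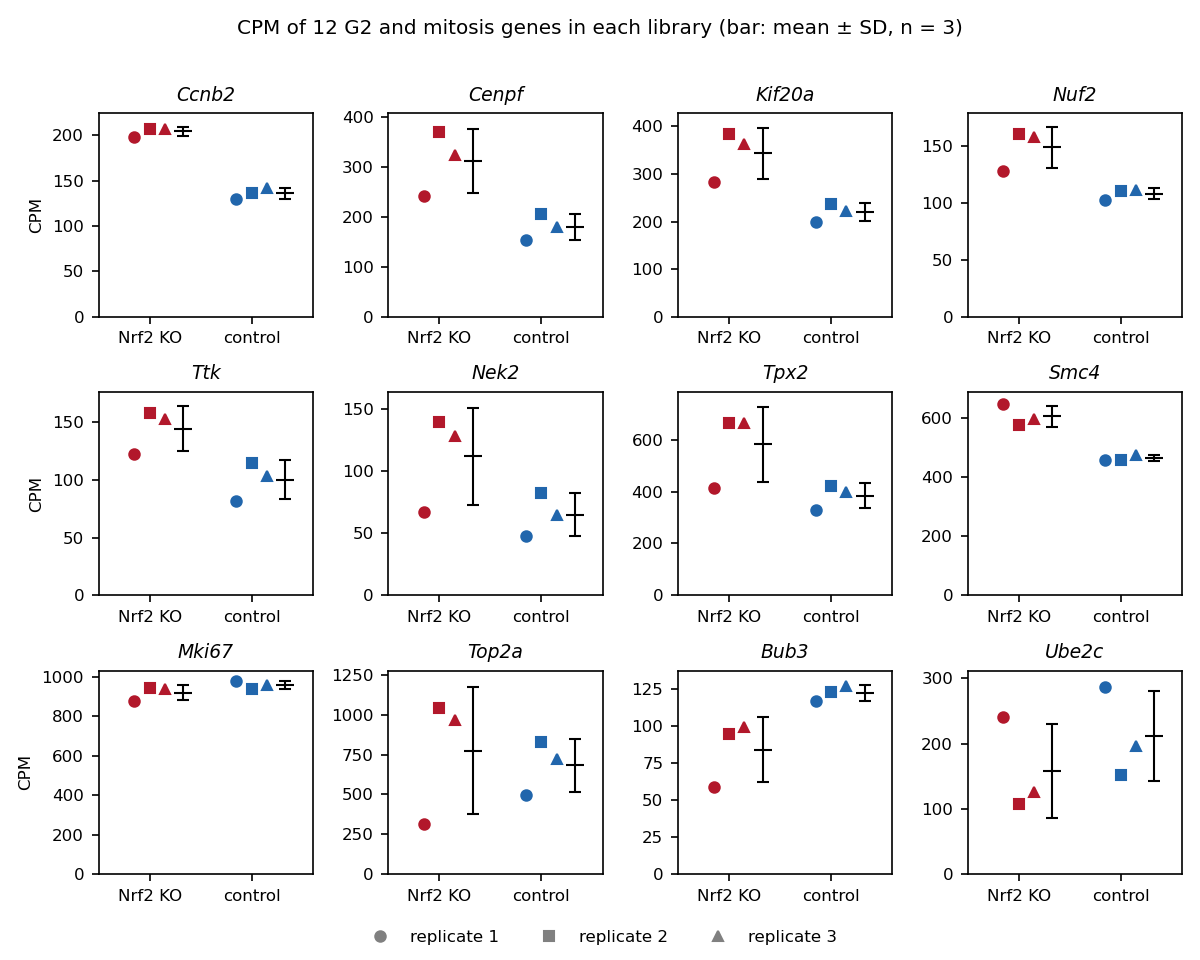
CPM of 12 of the 40 genes in each library, Nrf2 KO on the left of each panel and control on the right, with symbols for the replicate number and bars for the mean ± SD of 3 libraries. Ccnb2, Cenpf, Kif20a, Nuf2, Ttk and Smc4 do not overlap between the groups with Nrf2 KO above, Bub3 does not overlap with Nrf2 KO below, and the circle of replicate 1 is lowest of its group in Top2a and highest in Ube2c.

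Per unit of transcript length, in the authors' deposited table of group FPKM, Cdk1 led the 40 genes with an FPKM of 266 in the group labelled Nrf2 KO and 291 in control. Ube2c followed, with an FPKM of 171 in the KO-labelled group and 228 in control, and Tpx2 came next in the group labelled Nrf2 KO, with 166 against 111 in control. The CDC25 genes were at the low end: the FPKM of Cdc25c was 15.1 in the KO-labelled group and 13.5 in control, and that of Cdc25b 15.6 in the KO-labelled group and 13.9 in control. These are the authors' values for a whole group and carry no spread.

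Much of the spread among the 40 genes set replicate 1 of each group apart from the other libraries. The first principal component of their log2 CPM carried 71.5% of the variance, with replicate 1 of either group at one end and Nrf2 KO replicates 2 and 3 at the other (2.27 and 1.95). Control replicates 2 and 3 lay between them (0.37 and -0.36), so this component also parted the groups among replicates 2 and 3. The second component carried 25.6% and separated the KO-labelled libraries from control. The median coefficient of variation was 21.7% in the KO-labelled libraries and 8.54% in control, and it was larger in the KO-labelled libraries for 36 of the 40 genes (90%). Over all tested genes the medians were 28.6% in KO-labelled and 14.6% in control libraries, and 81.4% had the larger value in the KO-labelled libraries, so this spread was shared by the data as a whole. Nrf2 KO replicate 1 was the lowest library of its group for 29 members, or 72.5% (47.6% of all tested genes), and the highest for 8, or 20% (45.7%).

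The deviation of replicate 1 from its group differed in size between members and between the groups. Top2a was lower in replicate 1 than in the mean of replicates 2 and 3 by 1.66 on the log2(CPM + 2) scale in the KO-labelled libraries and by 0.63 in control; Prc1 was lower by 1.20 in KO-labelled and 0.60 in control libraries. Anln was lower by 1.23 in KO-labelled and 0.63 in control libraries. Ube2c went the other way, higher by 1.03 in KO-labelled and 0.73 in control libraries. Hmmr was lower by 1.48 in KO-labelled and 0.19 in control libraries, and Incenp higher by 0.87 in KO-labelled and 0.08 in control libraries, so that both deviated mainly under the Nrf2 KO label. The same held for Cdca8 (lower by 1.01 in KO-labelled and 0.19 in control libraries), Bub3 (0.70 in KO-labelled and 0.10 in control) and Birc5 (0.69 in KO-labelled and 0.07 in control). Across the 40 genes the deviations of replicate 1 in the 2 groups had a Pearson's r of 0.842, a description over genes that share their libraries, and the value over all tested genes with a transcript in the mouse annotation was also 0.842. The GC content of the longest annotated protein-coding transcript, from 39.4% for Kif20b to 56.0% for Plk1, moved with the deviation, with an r of 0.368 in the KO-labelled libraries and 0.332 in control over the 40 genes, against 0.192 in KO-labelled and 0.211 in control libraries over all tested genes with such a transcript. Its part in the deviation was not tested.

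**Figure D3:**
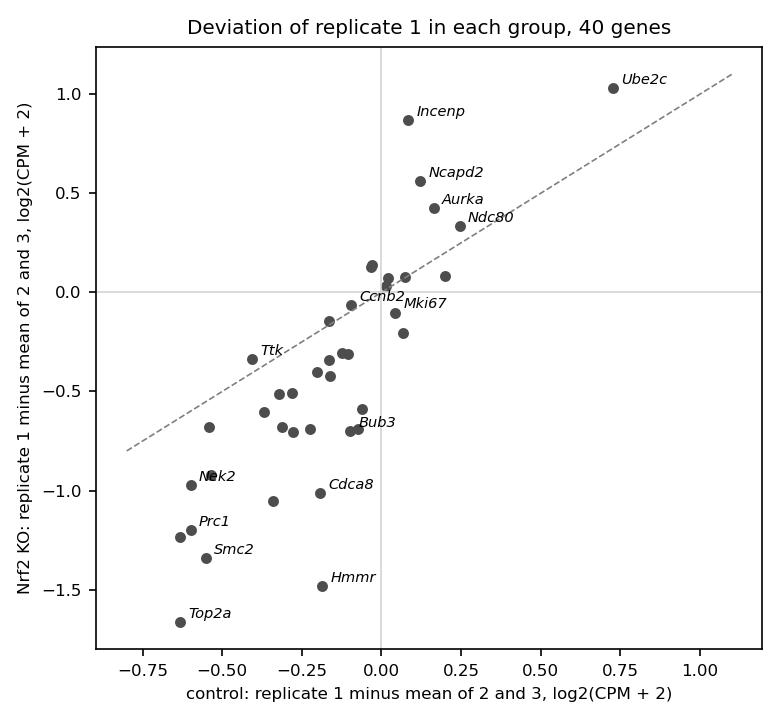
Deviation of replicate 1 from the mean of replicates 2 and 3, on the log2(CPM + 2) scale, in the KO-labelled libraries (vertical axis) and in control (horizontal axis), 1 point for each of the 40 genes. Most points lie at the lower left and below the dashed line of equal deviation, with Top2a lowest and Ube2c highest.

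Since the libraries numbered 1 deviated together from their groups, the number was also fitted as a block, a choice made on these same data. Numbers 2 and 3 were not told apart: Nrf2 KO replicate 3 had r = 0.638 with control replicate 2 and 0.629 with control replicate 3. With it 5 members were called higher (12.5%) and 0 lower, against 10.4% and 7.92% of all tested genes. The 5 were Cenpf, Nek2, Ccnb2, Kif20a and Ttk, and at an adjusted p of at most 0.05 by edgeR none of the other 35 passed. Within the same-numbered pairs, 22 members were higher in the KO-labelled library in 3 of 3 pairs, a share of 55%, where 30.3% of all tested genes were. Lower in 3 of 3 pairs were 4 members (10%, against 30.5% of all tested genes): Cdk1, Aurkb, Bub3 and Ube2c. The median log2 ratio of the 40 genes was 0.10 in pair 1, 0.29 in pair 2 and 0.25 in pair 3.

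The libraries used decided how many members were called. Nrf2 KO replicates 2 and 3 both lay above all 3 control libraries for 32 members, or 80% (32.1% of all tested genes), and both below for 2, or 5% (32.1%). Nrf2 KO replicate 1 lay above all 3 control libraries for 15 members and below all 3 for another 15, or 37.5% each, near the 41.3% and 41.2% of all tested genes. Without Nrf2 KO replicate 1, edgeR called 15 members higher (37.5%) and 1 lower (2.5%), while the shares of all genes were 15.6% and 14.5%. Without both libraries numbered 1 the counts were 24 (60%) and 2 (5%), with 24% and 22.1% of all genes. Without any 1 of the other 5 libraries, edgeR called 0 members in either direction. Few genes were called at all in those fits: 1.79% higher and 0.74% lower without Nrf2 KO replicate 2, 1.82% and 0.739% without Nrf2 KO replicate 3, 1.4% and 0.691% without control replicate 1, 1.37% and 0.659% without control replicate 2, and 0.925% and 0.379% without control replicate 3.

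The 24 members called higher without both libraries numbered 1 included every kinetochore gene and 3 of the 5 checkpoint genes (Ttk, Mad2l1 and Bub1b). The adjusted p by edgeR in that fit was 0.00065 for Tpx2 and Kif20a, 0.000694 for Cenpf, 0.00089 for Ccnb2 and 0.000963 for Nek2, with log2 fold changes of 0.70, 0.71, 0.85, 0.58 and 0.87. The 2 called lower were Bub3 (-0.36, SE 0.08) and Ube2c (-0.57, SE 0.13). Mki67 (-0.01), Cdk1 (-0.07), Aurkb (-0.06), Birc5 and Cdca8 were not called in that fit. Smc2, Ncapd2, Ccna2, Cdc25c, Cdc20, Plk1, Bub1, Kif11 and Kif23 were the other members without a call.

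**Figure D4:**
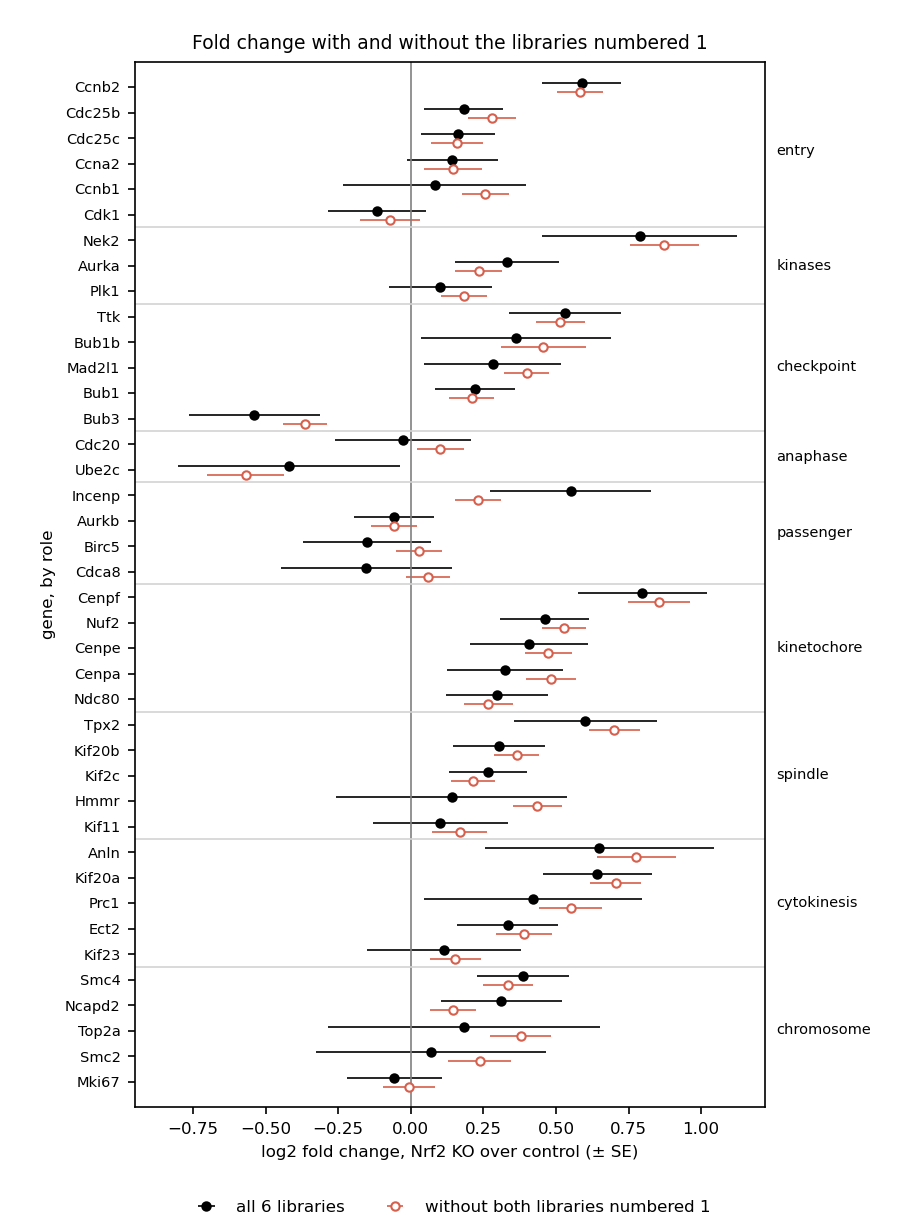
Log2 fold change, Nrf2 KO over control, of each of the 40 genes with its standard error, from all 6 libraries (filled) and without both libraries numbered 1 (open). The direction changes between the fits for Cdc20, Birc5 and Cdca8. The open points have the shorter error bars, in a fit whose left-out libraries were chosen for their deviation in these same data.

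**Figure D5:**
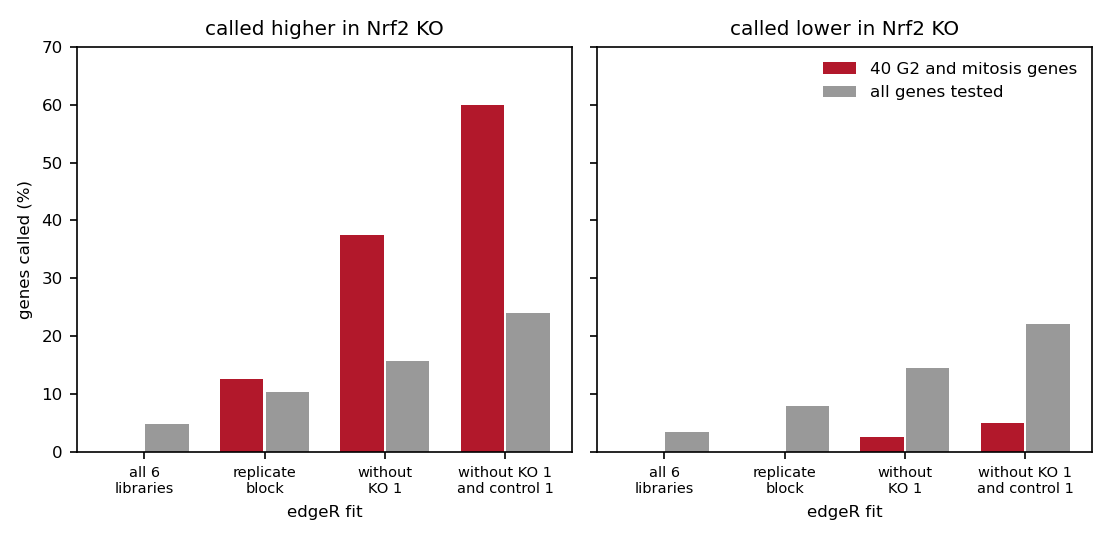
Share of the 40 G2 and mitosis genes (red) and of all tested genes (grey) called higher (left) and lower (right) in the KO-labelled libraries, at an adjusted p of at most 0.05 in 4 edgeR fits. The red share called higher runs from 0 with all 6 libraries to 60% without both libraries numbered 1, and the red share called lower stays at or below 5%.

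Calls in a wider set of G2 and mitosis genes also depended on the fit. Of 95 other such genes, 3 were called higher (3.16%) and 0 lower with all 6 libraries, where 4.83% and 3.45% of all tested genes were. With the replicate block the counts were 13 (13.7%) and 2 (2.11%), against 10.4% and 7.92% of all tested genes, and without both libraries numbered 1 they were 35 (36.8%) and 7 (7.37%), against 24% and 22.1%. The shares called higher with all 6 libraries and with the block were thus near those of all genes. In 27 of the 95 (28.4%) all 3 KO-labelled libraries lay above all 3 control libraries, and in 5 (5.26%) below, against 17.1% each of all tested genes. The summed level of the 95 genes was 12509, 12267 and 12476 CPM in Nrf2 KO replicates 1, 2 and 3. In control replicates 1, 2 and 3 it was 10740, 10617 and 10728 CPM, so the sums did not overlap. At an unadjusted p under 0.05, edgeR gave 20 higher and 3 lower (13.4% and 11.6% of all genes). DESeq2 called 17 and 2 (10.9% and 9.02% of all genes), and limma-voom 3 and 0 (5.14% and 4.12%). Cit, the citron kinase of the midbody, averaged 71.9 ± 9.18 CPM in the KO-labelled libraries and 39.2 ± 5.26 CPM in control (log2 fold change 0.88, SE 0.17, adjusted p = 0.0294 by edgeR). Cdca2, which recruits a phosphatase to chromosomes at mitotic exit, averaged 136 ± 20.2 CPM in KO-labelled and 78.4 ± 5.37 CPM in control libraries (0.80, SE 0.16, adjusted p = 0.0343 by edgeR). Pbk, a mitotic kinase, averaged 123 ± 7.51 CPM in KO-labelled and 77.8 ± 9.11 CPM in control libraries (0.66, SE 0.15, adjusted p = 0.0485 by edgeR). Each of these calls was lost when any 1 library other than Nrf2 KO replicate 1 was left out.

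Transcription of G2 and mitosis genes is repressed in resting cells by the DREAM complex and activated in G2 by B-MYB and FOXM1. The MuvB core shared by these complexes holds LIN54, which binds the CHR element, and LIN9, while NF-Y binds CCAAT boxes. Of 24 tested regulators of this system 2 were higher (8.33%) and 0 lower, against 4.83% and 3.45% of all tested genes. The counts were 3 and 4 at an unadjusted p under 0.05 by edgeR (13.4% and 11.6% of all genes), 3 and 3 with DESeq2 (10.9% and 9.02%), and 2 and 1 with limma-voom (5.14% and 4.12%). In so short a list these counts are near the shares of all genes. Lin54 was at 68.9, 70.3 and 69.7 CPM in the KO-labelled libraries, against 37.0, 45.1 and 41.6 CPM in control (log2 fold change 0.76, SE 0.14, adjusted p = 0.0247 by edgeR). Lin9 was at 31.5, 27.1 and 26.1 CPM in the KO-labelled libraries and 15.6, 19.3 and 16.8 CPM in control (0.71, SE 0.16, adjusted p = 0.0487 by edgeR). Mybl2, the gene of B-MYB, which was singled out after its values were seen, was at 94.6, 89.1 and 89.5 CPM in the KO-labelled libraries and 128, 143 and 134 CPM in control. Its groups did not overlap either (-0.57, SE 0.13), and its adjusted p was 0.0505 by edgeR and 0.0337 with the replicate block. The calls of Lin54 and Lin9 were lost, with adjusted p up to 0.163 and 0.246, when any 1 library other than Nrf2 KO replicate 1 was left out.

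Promoters of the 40 genes were searched for both elements, as the letters TTTGAA or TTCGAA for the CHR and CCAAT for the CCAAT box, on both strands, in the window from 250 bases before to 50 bases after the start in RefSeq (build GRCm38.p6). TTCGAA reads the same on both strands, and neighbouring matches may share outer bases. Of 33 members with a promoter in that table, 27 held a CHR (81.8%), 26 a CCAAT box (78.8%) and 23 both (69.7%). Over the 27025 genes of the whole table the shares were 21.7%, 41.1% and 8.61%, and over the 8957 of them tested here 16.03%, 42.7% and 6.70%. Among the 76 other G2 and mitosis genes with a promoter they were 55.3%, 60.5% and 39.5%, and among 41 S phase genes 19.5%, 56.1% and 12.2%. A match describes these letters only and shows neither binding nor a cause.

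The promoters below belong to the 5 members with the smallest p that had an entry and a match, and they show how the elements lie around the start. Each runs 5′ to 3′ on the gene's strand from 140 bases before to 20 bases after the start, with CHR and CCAAT letters of either strand in capitals. Ccnb2 and Cenpf combine CCAAT boxes upstream with a CHR just after the start (from base 5 and base 3; Ccnb2 has another CHR further upstream, at -167), and Ttk has the same order with its CHR on the reverse strand from base 8. In Bub3, the gene without overlap in the downward direction, the CHR stands between the CCAAT boxes at -74 and -32, on the reverse strand from -43. Nek2 holds CCAAT boxes at -26 and 8 and no CHR in this window.
Ccnb2 (chr9:70421535-70421694, minus strand): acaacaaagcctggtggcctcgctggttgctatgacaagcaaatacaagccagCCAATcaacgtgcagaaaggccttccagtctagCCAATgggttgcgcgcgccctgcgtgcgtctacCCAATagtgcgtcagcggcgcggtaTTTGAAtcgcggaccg
Cenpf (chr1:189688067-189688226, minus strand): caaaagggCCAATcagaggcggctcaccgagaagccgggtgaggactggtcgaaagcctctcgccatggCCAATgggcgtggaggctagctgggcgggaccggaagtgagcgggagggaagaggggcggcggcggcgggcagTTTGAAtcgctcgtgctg
Ttk (chr9:83834549-83834708, plus strand): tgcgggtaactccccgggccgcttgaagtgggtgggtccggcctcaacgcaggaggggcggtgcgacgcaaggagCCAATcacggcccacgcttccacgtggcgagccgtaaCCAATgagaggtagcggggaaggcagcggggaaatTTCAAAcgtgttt
Bub3 (chr7:131560230-131560389, plus strand): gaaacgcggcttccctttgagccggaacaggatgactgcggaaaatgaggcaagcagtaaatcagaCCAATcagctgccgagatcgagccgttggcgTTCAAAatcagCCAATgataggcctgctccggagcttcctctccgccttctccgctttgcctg
Nek2 (chr1:191821333-191821492, plus strand): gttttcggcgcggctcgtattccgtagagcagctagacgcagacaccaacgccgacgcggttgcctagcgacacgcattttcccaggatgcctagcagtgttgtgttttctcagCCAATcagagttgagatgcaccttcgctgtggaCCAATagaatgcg

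Genes of the preceding S phase had mostly negative values. Of 50 tested S phase genes 1 was called higher and 0 lower with all 6 libraries (4.83% and 3.45% of all genes), and 1 higher and 9 lower at an unadjusted p under 0.05 by edgeR (13.4% and 11.6%). Their median log2 fold change was -0.21. Their summed level overlapped between the groups. It was 4786, 6989 and 6948 CPM in Nrf2 KO replicates 1, 2 and 3, against 5771, 7049 and 6639 CPM in control replicates 1, 2 and 3. DESeq2 called 1 higher and 9 lower (10.9% and 9.02% of all genes), and limma-voom 1 and 0 (5.14% and 4.12%). With the replicate block 1 was higher (2%) and 8 lower (16%), against 10.4% and 7.92% of all genes. Without both libraries numbered 1 the counts were 4 and 19, or 8% and 38%, against 24% and 22.1%. The member called higher was Dbf4, the activating subunit of the CDC7 kinase, at 98.0 ± 11.2 CPM in the KO-labelled libraries and 51.9 ± 4.27 CPM in control (log2 fold change 0.92, SE 0.15, adjusted p = 0.018 by edgeR). That call was lost without any 1 library other than Nrf2 KO replicate 1, with an adjusted p of up to 0.126. Within the same-numbered pairs, 27 of the 50 S phase genes (54%) and 4 of the 40 G2 and mitosis genes (10%) were lower in 3 of 3 pairs, against 30.5% of all tested genes. Whether the lists differ was not tested.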

How the data were processed

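The authors deposited whole-number counts per gene symbol for each library and a table of FPKM with 1 value per group; the sources used here give no method for the FPKM. Per the submitters' processing notes, the build was hg18 and the software HISAT2, fastp, FastQC and DESeq2 1.34.0; the counting tool, strand setting and annotation are not given. The symbols follow rat nomenclature (650 of 30438 start with RGD and 10844 with LOC); what this does to the levels was not tested.

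The test on counts was that of edgeR 4.0.16 under R 4.3.3 (filterByExpr with minimum count 10 and minimum total 15, TMM scaling, robust quasi-likelihood, group as the only term). P-values were two-sided and adjusted by Benjamini-Hochberg over 14618 genes, threshold 0.05; the SE is the log2 fold change over the square root of F. The scripts were tested on simulated data. DESeq2 1.42.0 and limma 3.58.1 were alternatives, with other scalings and filters, the replicate block and left-out libraries. Libraries of the same number deviated together from their group means (r = 0.839, 0.821 and 0.629 for numbers 1, 2 and 3). The numbers were therefore treated as pairs, a choice that rests on these same data. Each deviation is from a mean of 3 libraries. A shared deviation of the libraries numbered 1 thus pushes numbers 2 and 3 the other way in both groups. The r of numbers 2 and 3 is for that reason no separate ground for pairing them. Numbers 2 and 3 were not told apart, since Nrf2 KO 3 had r = 0.638 with control 2, and Nrf2 KO 2 had r = 0.532 with control 3; the labels do not say what a number stands for. No 2 libraries of a group agreed within sampling noise (smallest chi-square per degree of freedom 14.3). Ratios within pairs used CPM + 1. Mouse gene positions and overlaps, transcript length and GC content came from GENCODE M21, promoters from RefSeq GRCm38.p6.

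The members and lists were chosen with earlier results of these data known. Named were all members, values in every library for the highest member of each role, and up to 4 called genes (or the 2 highest) of each other list. Ccnb2, Nek2, Ttk, Bub3, Ube2c, Nuf2, Hmmr, Kif20a, Smc4, Smc2, Top2a and Mybl2 were given per library after their values were seen.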

Additional observations from a re-analysis of the deposited data

How the results depend on the processing

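Counts are given as called higher and lower, for the 40 genes, then the 95 other G2 and mitosis genes, the 24 regulators and the 50 S phase genes. The shares of all genes called were 10.9% and 9.02% with DESeq2, 5.14% and 4.12% with limma-voom, and 4.31% and 4.08% with upper-quartile scaling. They were 4.42% and 3.66% with library size alone, 2.85% and 1.98% with no filter on low counts, and 4.95% and 3.45% with RLE scaling. They were 5.22% and 3.8% with the filter of 1 CPM, and 10.4% and 7.92% with the replicate block. DESeq2 gave 5 and 0, 17 and 2, 3 and 3, and 1 and 9, and limma-voom 1 and 0, 3 and 0, 2 and 1, and 1 and 0. Upper-quartile scaling gave 0 and 0, 1 and 0, 1 and 2, and 1 and 1; it moved the median log2 fold change of all genes to -0.01, against 0.04, and that of the 40 genes to 0.21, against 0.27. Library size alone gave 0 and 0, 0 and 0, and 1 and 1 in the first 3 lists, and no filter on low counts 0, 1 and 1 higher. RLE scaling and a filter of 1 CPM each called 1 of the 40 genes higher, and the filter 1 regulator lower. The replicate block, which pairs libraries by number, gave 5 and 0, 13 and 2, 2 and 2, and 1 and 8. Without both libraries numbered 1 the counts were 24 and 2, 35 and 7, 4 and 6, and 4 and 19. In that fit 24% and 22.1% of all genes were called, against 16.7% and 25% of the regulators. When each library was left out in turn, the counts ranged over 0 to 15 and 0 to 1, 0 to 23 and 0 to 3, 0 to 4 and 0 to 3, and 0 to 2 and 0 to 10. The highest value of each was without Nrf2 KO replicate 1, where 15.6% and 14.5% of all genes were called. The log2 fold change of Nfe2l2 missed the threshold with upper-quartile scaling (1.45, adjusted p = 0.0526 by edgeR) and library size alone (1.50, 0.0593), and ranged from 1.15 to 1.71 with a library left out. The cause of these changes was not tested.

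The direction turned in some alternative for 9 members, none of them called with all 6 libraries; of these, Hmmr, Top2a and Ccnb1 were called higher without both libraries numbered 1, and Hmmr also without Nrf2 KO replicate 1. With limma-voom the log2 fold change was -0.0059 for Ccnb1, -0.050 for Smc2 and -0.034 for Hmmr, and with the replicate block -0.026 for Smc2. Without both libraries numbered 1 it was 0.10 for Cdc20, 0.028 for Birc5 and 0.059 for Cdca8. With 1 library left out, Top2a ranged from -0.087 to 0.55, Ccnb1 from -0.078 to 0.35, Cdc20 from -0.15 to 0.16, Birc5 from -0.29 to 0.044, Cdca8 from -0.34 to 0.11, Kif11 from -0.015 to 0.27, Kif23 from -0.047 to 0.31, Smc2 from -0.15 to 0.39 and Hmmr from -0.11 to 0.49. The other 31 members kept their direction in all 15 alternatives. Every library held at least 29130007 counts, and replicates of a group differed beyond sampling noise.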
